A study of Homo sapiens with 6 samples.

Results

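The genes described here are the 10 members of the HSP70 and HSP110 chaperone family that were chosen by symbol: HSPA8, HSPA1A, HSPA1B, HSPA1L, HSPA2, HSPA13, HSPA14, HSPA4, HSPA4L and HSPH1. All 10 were found among the 26255 genes of the expression files, and all 10 were among the 12729 genes that were tested, those averaging 1 FPKM or more over the 6 samples (FPKM counts fragments relative to transcript length and to the mapped reads of the library). HSPA1L passed this filter narrowly, with an average of 1.06 FPKM over all samples and 0.766 FPKM with BCT. The rule goes by symbol and holds no measured value, although the set was proposed with earlier results of these data known. The family is grouped as cytosolic, but HSPA13 is known as a microsome-associated protein, so the set is best read as the HSP70 and HSP110 genes outside the main endoplasmic reticulum and mitochondrial forms.

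RNA was sequenced from 22RV1 cells, an established human line of castration-resistant prostate cancer. Cells grown in RPMI medium with fetal bovine serum received the vehicle DMSO (3 samples) or 10 nM bruceantin (BCT; 3 samples), a quassinoid natural product, for 24 h. The study asked which transcripts respond to BCT, a compound it examined for effects on androgen receptor signaling and on HSP90. All samples are of 1 cell line at 1 dose and 1 time, and no source used here says that the replicates were separate cultures, so the p-values measure the spread between these samples, which may be technical.

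HSP70 proteins bind exposed hydrophobic stretches of client proteins and release them in a cycle driven by ATP. J-domain proteins deliver clients and start ATP hydrolysis, and nucleotide exchange factors, among them the HSP110 proteins, end the cycle by removing ADP. HSP70 passes steroid receptors such as the androgen receptor on to HSP90, and the stress-inducible members are classic targets of heat shock factor 1 (HSF1), which binds repeated GAA units called heat shock elements.

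The FPKM values of the 26255 genes ranged in their sum from 1169649 to 1572321 in DMSO samples and from 757534 to 799838 in BCT samples. A single transcript, MIR6087, took 43.5% to 55.3% of it in the former and 31.7% to 32.5% in the latter, and a rescaling of the samples to equal sums moves every gene. The files hold no counts. Depth is known only relative to DMSO replicate 1, at 0.874 to 1 with DMSO and 1.06 to 1.13 with BCT, and no counting interval can be given. All 7 prostate epithelial markers had a mean of at least 1 FPKM, with a summed level of 784 to 789 FPKM with DMSO and 1772 to 1950 with BCT, against 1 of 6 fibroblast markers (2.62 to 2.79 and 5.87 to 7.13 FPKM) and 1 of 5 leukocyte markers (2.75 to 3.70 and 5.59 to 8.74 FPKM), while PTPRC and CD3E were at or near 0. In bulk RNA of this kind, fewer cells and less RNA per cell cannot be told apart.

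Of the 10 members, 4 fell with BCT (HSPA8, HSPA2, HSPA1B and HSPA1A) and 0 rose, where a call needed an absolute log2 fold change over 0.85 and an adjusted p (false discovery rate, FDR) under 0.05 in limma. All 4 belong to the HSP70 class. HSPA1A and HSPA1B share most of their transcript sequence, and with them summed as 1 row the tally was 3 of 9 called, 3 lower and 0 higher. With each sample scaled to the same FPKM sum, the tally was 1 lower (HSPA8) and 3 higher (HSPA4, HSPA4L and HSPA13). The background in the same comparison was 31.6% of tested genes called in either direction, 17.8% called lower and 13.9% called higher. Counting the FDR alone, 7 of the 10 passed, 6 of them lower and 1 higher, against 82.1% of all tested genes. The 2 groups of samples were separate in 7 of 10 members, against 85.3% of all tested genes, so neither of these counts was above the background. The median log2 fold change was -0.65 over the members and -0.04 over all tested genes.

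**Figure D1:**
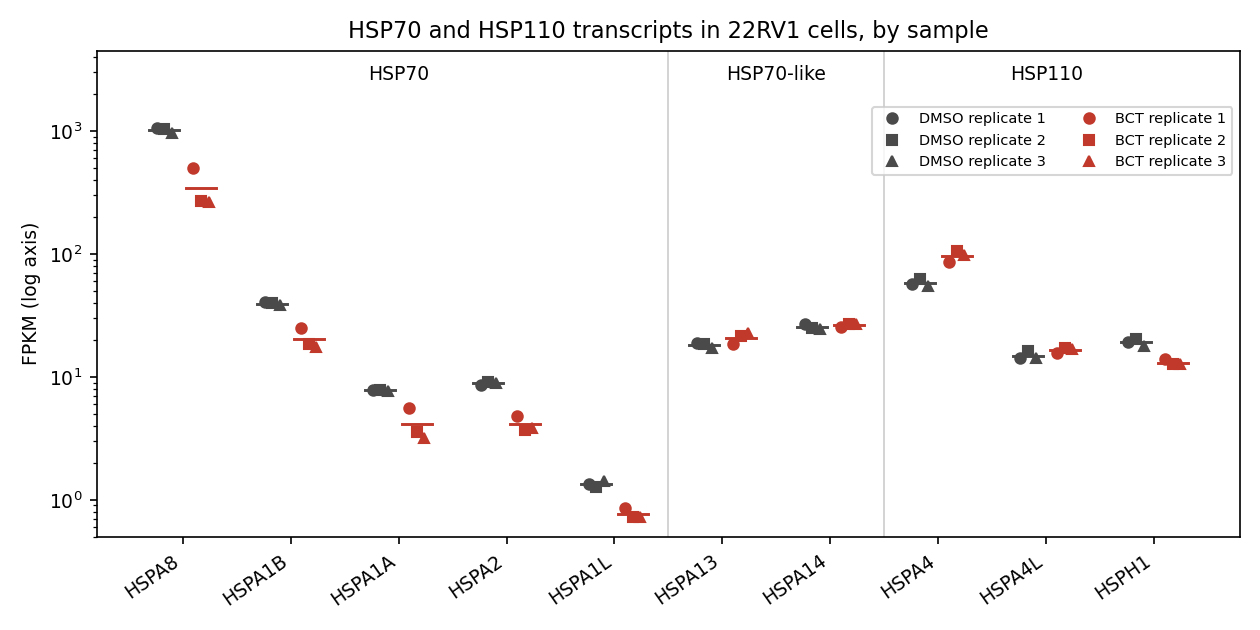
FPKM (log axis) of each of the 10 members in each sample, grouped by class. Grey points are the 3 DMSO samples, red points the 3 BCT samples, shapes give the replicate and bars give group means. HSPA8 stands above 1 order of magnitude over every other member with DMSO, and BCT replicate 1 (red circle) is the BCT sample nearest to DMSO in HSPA8, HSPA1A, HSPA1B and HSPA2.

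HSPA8 dominated the family. HSPA8, or HSC70, is the constitutive HSP70 of the cytosol, which folds new proteins and uncoats clathrin vesicles. Its level was 1052, 1043 and 971 FPKM in the 3 DMSO samples and 500, 272 and 266 FPKM in the 3 BCT samples. The groups did not overlap, and BCT replicate 1 was well above the other 2 BCT samples. The mean was 1022 ± 44.4 FPKM (SD, n = 3) with DMSO and 346 ± 134 FPKM (SD, n = 3) with BCT, a 2.95-fold lower level. The log2 fold change was -1.63 (SE 0.22, 95% interval -2.12 to -1.13, adjusted p = 0.000135, limma). By level HSPA8 ranked 103 of the 12729 tested genes with DMSO and 199 with BCT, and its fall ranked 642 among them. Without BCT replicate 1 the log2 fold change was -1.93.

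Within each sample HSPA8 made up most of the family's signal. The 10 members summed to 1215 ± 51.5 FPKM (SD, n = 3) with DMSO and 549 ± 128 FPKM (SD, n = 3) with BCT. HSPA8 alone accounted for 84.1% ± 0.249 (SD, n = 3) of that sum with DMSO and 61.6% ± 8.82 (SD, n = 3) with BCT. Without HSPA8, the other 9 members summed to 193 ± 7.80 and 203 ± 7.04 FPKM (SD, n = 3 each), so the lower family total lay in HSPA8.

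HSPA1A and HSPA1B encode the same stress-inducible HSP70 protein, known as HSP72, from neighbouring intronless genes in the major histocompatibility complex. HSPA1A measured 7.85, 7.83 and 7.67 FPKM with DMSO and 5.54, 3.59 and 3.19 FPKM with BCT. HSPA1B measured 40.4, 39.6 and 38.1 FPKM with DMSO and 25.0, 18.4 and 17.7 FPKM with BCT. In both genes every BCT sample was below every DMSO sample, and BCT replicate 1 was again the highest BCT sample. The log2 fold change was -0.95 for HSPA1A (SE 0.18, adjusted p = 0.00103, limma) and -0.96 for HSPA1B (SE 0.12, adjusted p = 9.41e-05, limma).

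The 2 rows cannot be read as separate genes. Of the 100-base stretches of the HSPA1A transcript, 72.4% also occur in HSPA1B, and 68.9% of those of HSPA1B occur in HSPA1A. Reads over them could be given to either. An annotated long noncoding RNA also holds 31.6% of the stretches of HSPA1A and 34% of those of HSPA1B. Summing the pair therefore need not settle where all such reads were counted. HSPA1A held 16.5% ± 0.251 (SD, n = 3) of the summed pair with DMSO and 16.6% ± 1.42 (SD, n = 3) with BCT. As 1 row, the pair measured 48.3, 47.4 and 45.8 FPKM with DMSO and 30.6, 22.0 and 20.9 FPKM with BCT, and its log2 fold change was -0.96 (SE 0.13, adjusted p = 0.000144, limma), past both thresholds.

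HSPA2 is an HSP70 best known for its role in spermatogenesis. Its level was 8.63, 9.06 and 8.89 FPKM with DMSO and 4.79, 3.68 and 3.84 FPKM with BCT. Every BCT sample was below every DMSO sample. The means were 8.86 ± 0.216 and 4.10 ± 0.601 FPKM (SD, n = 3 each), and the log2 fold change was -1.10 (SE 0.099, adjusted p = 1.34e-05, limma). HSPA1L, a testis-enriched HSP70 encoded next to HSPA1A, was the lowest member. It measured 1.34, 1.27 and 1.44 FPKM with DMSO and 0.852, 0.726 and 0.720 FPKM with BCT. The groups did not overlap, but the log2 fold change of -0.74 (SE 0.16, adjusted p = 0.00219, limma) was under the fold threshold, and it was not called.

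The calls of HSPA1A, HSPA1B and HSPA2 depended on the scale of the samples. Scaling each sample to the same FPKM sum shifted the median over the tested genes from -0.04 to 0.72, and scaling to equal sums without MIR6087 raised it to 0.34. Under these scalings the log2 fold change was -0.19 and -0.57 for HSPA1A, -0.20 and -0.58 for HSPA1B and -0.35 and -0.72 for HSPA2, with all 3 calls lost. HSPA8 was still called, at -0.86 and -1.24. Relative to the median of all tested genes, the values as deposited were -1.59 for HSPA8, -1.06 for HSPA2, -0.93 for HSPA1B and -0.91 for HSPA1A. The call of HSPA1A was also lost without BCT replicate 3, at -0.79, and with a pseudocount of 1, at -0.81. A correction for GC content and length gave -0.70 for HSPA1A and -0.74 for HSPA1B, which have the highest GC content of the members (59.8% and 58.8% of their transcripts), and both calls were lost.

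BCT replicate 1 lay between the DMSO samples and the other BCT samples. In HSPA8 its log2 difference from the DMSO mean was 53.5% of that of the other 2 BCT samples, and in HSPA1A it was 41.1%. The median of this share over the 4 called members was 55.8%, beside a median of 82.7% over all 4027 called genes, of which 92.8% had a share below 100%. The part of this sample in the results was not tested beyond leaving it out.

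**Figure D2:**
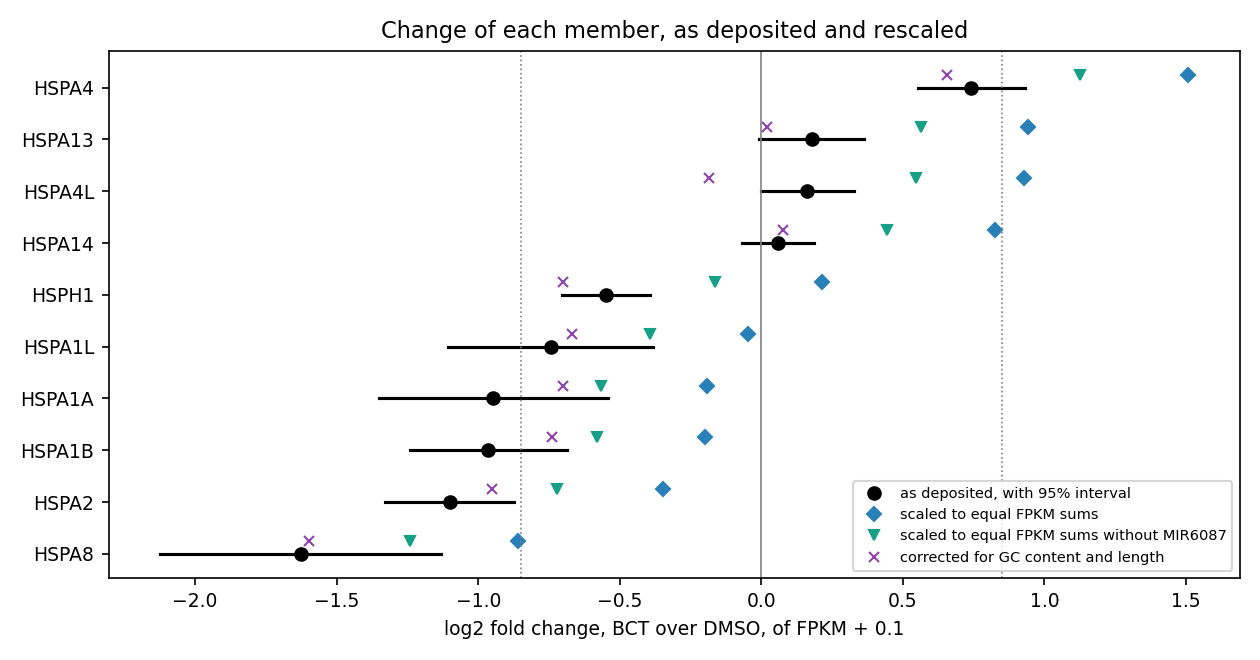
Log2 fold change (BCT over DMSO, of FPKM + 0.1) of each member. Black points with bars are the values as deposited with their 95% intervals, coloured marks are the same quantity after rescaling or correction, and dotted lines mark the fold threshold of 0.85. Equal-sum scaling moves every member to the right, and HSPA8 lies left of -0.85 under every setting shown.

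Promoter sequences of the called HSPA8, HSPA1A and HSPA1B, and of HSPA4 as the member that differed in the other direction, are shown because the heat shock elements in them differ. RefSeq promoter windows, from 250 bases before to 50 after the gene's start (table build GRCh38.p14), were matched by symbol for 9 of the 10 members, and the bases below were placed on GRCh37 by exact match. Capitals mark a heat shock element of 3 units (GAANNTTCNNGAA or its reverse complement TTCNNGAANNTTC) or of 2 units (GAANNTTC or TTCNNGAA, which also occur inside the longer one), a CCAAT box (CCAAT or ATTGG) or TATAAA on the gene's strand. The HSPA8 windows are cut to 30 bases, since alternative HSPA8 transcripts start upstream and their first exons reach these bases.
HSPA8, upstream, chr11:122933053-122933082, minus strand: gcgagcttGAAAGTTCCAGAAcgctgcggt
HSPA8, near the start, chr11:122932879-122932908, minus strand: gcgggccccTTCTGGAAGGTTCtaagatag
HSPA1A, chr6:31783190-31783299, plus strand: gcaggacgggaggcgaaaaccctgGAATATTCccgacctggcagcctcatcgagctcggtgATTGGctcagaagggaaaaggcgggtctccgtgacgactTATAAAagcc
HSPA1B, chr6:31795385-31795494, plus strand: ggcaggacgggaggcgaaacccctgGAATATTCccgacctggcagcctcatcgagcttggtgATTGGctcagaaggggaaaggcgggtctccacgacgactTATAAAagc
HSPA4, chr5:132387575-132387684, plus strand: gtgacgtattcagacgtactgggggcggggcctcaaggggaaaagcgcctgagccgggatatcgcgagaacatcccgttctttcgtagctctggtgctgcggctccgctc

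HSPA8 held the 3-unit element at 2 places, at positions -230 to -218 and -55 to -43 relative to its start, and was the 1 member to do so. That element was present in the windows of 0.608% of the 27305 genes in the table and in 0.490% of its 35116 windows. The 2-unit element was present in 5 members (HSPA8, HSPA1A, HSPA1B, HSPA1L and HSPA4L), against 16.2% of genes. In HSPA1A it lay at -106 to -99 and in HSPA1B at -105 to -98. In HSPA1L it lay at -161 to -154 and is the same stretch of DNA as in HSPA1A, since both genes start there in opposite directions. A CCAAT box was present in 6 members, against 39.7% of genes, and TATAAA in 3, against 8.99%. The windows of HSPA2, HSPA4, HSPA13 and HSPH1 matched neither heat shock element. Among the called members, then, HSPA8, HSPA1A and HSPA1B held a matched element and HSPA2 did not. These matches are of letters only.

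The HSP110 proteins are large relatives of HSP70 that act as its nucleotide exchange factors. HSPA4, or APG-2, was the only member with a higher level past the FDR. It measured 57.1, 62.0 and 54.5 FPKM with DMSO and 86.5, 105.6 and 98.7 FPKM with BCT. Every BCT sample was above every DMSO sample, with means of 57.8 ± 3.83 and 96.9 ± 9.67 FPKM (SD, n = 3 each), a ratio of 1.68. The log2 fold change of 0.74 (SE 0.082, 95% interval 0.55 to 0.93, adjusted p = 4.47e-05, limma) was under the fold threshold, so HSPA4 was not called. It passed the threshold with equal sums (1.51), with equal sums without MIR6087 (1.13) and with quantile normalization (0.90).

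HSPH1, or HSP105, is the HSP110 most often described as heat-inducible. It measured 19.2, 20.3 and 17.8 FPKM with DMSO and 13.9, 12.6 and 12.6 FPKM with BCT. The groups did not overlap, at 19.1 ± 1.24 and 13.0 ± 0.710 FPKM (SD, n = 3 each), and the log2 fold change was -0.55 (SE 0.067, adjusted p = 8.37e-05, limma), under the fold threshold. Its sign depended on the scaling, with a value of 0.22 at equal sums (adjusted p = 0.214, limma). At equal sums without MIR6087 HSPH1 stood at -0.16 (adjusted p = 0.0751, limma), and it passed the FDR under neither scaling. HSPA4L, or APG-1, the testis-enriched relative of HSPA4, measured 14.2, 16.3 and 14.2 FPKM with DMSO and 15.7, 17.3 and 16.8 FPKM with BCT. Its groups overlapped, and its log2 fold change of 0.16 (SE 0.072, adjusted p = 0.0628, limma) did not pass the FDR. It was called higher at equal sums (0.93), and after the correction for GC content and length it took the other sign, at -0.18 (adjusted p = 0.0129, limma). It passed the FDR but not the fold threshold with equal sums without MIR6087 (0.55), upper quartile scaling (0.21) and median of ratios scaling (0.20). The same held with DMSO replicate 2 (0.23) or BCT replicate 1 (0.20) left out, and with a replicate block (0.16).

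HSPA13 and HSPA14 stand apart from the canonical HSP70s. HSPA13 (STCH) lacks the usual substrate-binding domain, and HSPA14 (HSP70L1) works on the ribosome with the J-domain protein DNAJC2. HSPA13 measured 19.0, 18.6 and 17.3 FPKM with DMSO and 18.4, 21.3 and 22.6 FPKM with BCT, with a log2 fold change of 0.18 (SE 0.081, adjusted p = 0.0689, limma). It was called higher at equal sums (0.94), and without BCT replicate 1 it passed the FDR but not the fold threshold (0.26, adjusted p = 0.00228, limma). The same held with equal sums without MIR6087 (0.56), upper quartile scaling (0.22) and median of ratios scaling (0.22). After the correction for GC content and length it stood at 0.02. HSPA14 measured 26.8, 24.9 and 24.5 FPKM with DMSO and 25.6, 27.1 and 26.8 FPKM with BCT, with a log2 fold change of 0.06 (SE 0.055, adjusted p = 0.341, limma). The groups overlapped in both genes. At equal sums (0.82) and at equal sums without MIR6087 (0.44), HSPA14 passed the FDR but not the fold threshold. The HSPA14 transcript shares 13.2% of its 100-base stretches with MSANTD7.

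By length-normalized level, the order with DMSO was HSPA8, HSPA4, HSPA1B, HSPA14, HSPH1, HSPA13, HSPA4L, HSPA2, HSPA1A and HSPA1L, and of these neighbours HSPH1 and HSPA13 overlapped. With BCT the order was HSPA8, HSPA4, HSPA14, HSPA13, HSPA1B, HSPA4L, HSPH1, HSPA1A, HSPA2 and HSPA1L, with overlap between HSPA13 and HSPA1B and between HSPA1A and HSPA2. HSPA1B went from the third place to the fifth, and HSPH1 from the fifth to the seventh.

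Ratios between members within a sample do not depend on how that sample was scaled. The HSPA1A plus HSPA1B level divided by that of HSPA8 was 0.0459, 0.0455 and 0.0472 with DMSO and 0.0611, 0.0809 and 0.0786 with BCT, so the inducible pair was 1.58-fold higher relative to HSPA8 with BCT (log2 difference 0.66, SE 0.13). HSPH1 relative to HSPA8 differed by 1.08 on the log2 scale (SE 0.26), and HSPA4L relative to HSPA4 by -0.58 (SE 0.049). In each ratio the 3 BCT samples lay on one side of the 3 DMSO samples, which gives a two-sided exact permutation p of 0.1 for each, the smallest p that 3 samples against 3 allow. Leaving out 1 sample at a time gave differences of 0.59 to 0.79, 0.94 to 1.33 and -0.62 to -0.54 in the same order.

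The largest of the ratio differences computed was that of summed HSP110 to summed HSP70. The HSP110 genes (HSPA4, HSPA4L and HSPH1) summed to 91.8 ± 6.17 FPKM with DMSO and 127 ± 9.85 FPKM with BCT (SD, n = 3 each), and the HSP70 genes (HSPA8, HSPA1A, HSPA1B, HSPA1L and HSPA2) to 1079 ± 45.5 and 375 ± 139 FPKM. HSP110 stood at 8.14%, 8.96% and 8.42% of HSP70 in the DMSO samples and at 21.6%, 45.4% and 44.1% in the BCT samples. The log2 difference was 2.05 (SE 0.35, two-sided exact permutation p = 0.1, the smallest possible), and 2.40 without BCT replicate 1. This ratio was chosen after the values had been seen. HSPA4 alone went from 4.76% ± 0.209 to 18.5% ± 5.24 (SD, n = 3 each) of the family sum. Within HSP110, HSPA4 went from 57.8 to 96.9 FPKM, HSPA4L (0.16) did not pass the FDR and HSPH1 was lower (-0.55). HSPA8 made up most of the HSP70 sum, at 1022 FPKM with DMSO and 346 FPKM with BCT. The ratio thus mainly sets HSPA4 against HSPA8, and it does not show a rise shared by the 3 HSP110 genes.

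**Figure D3:**
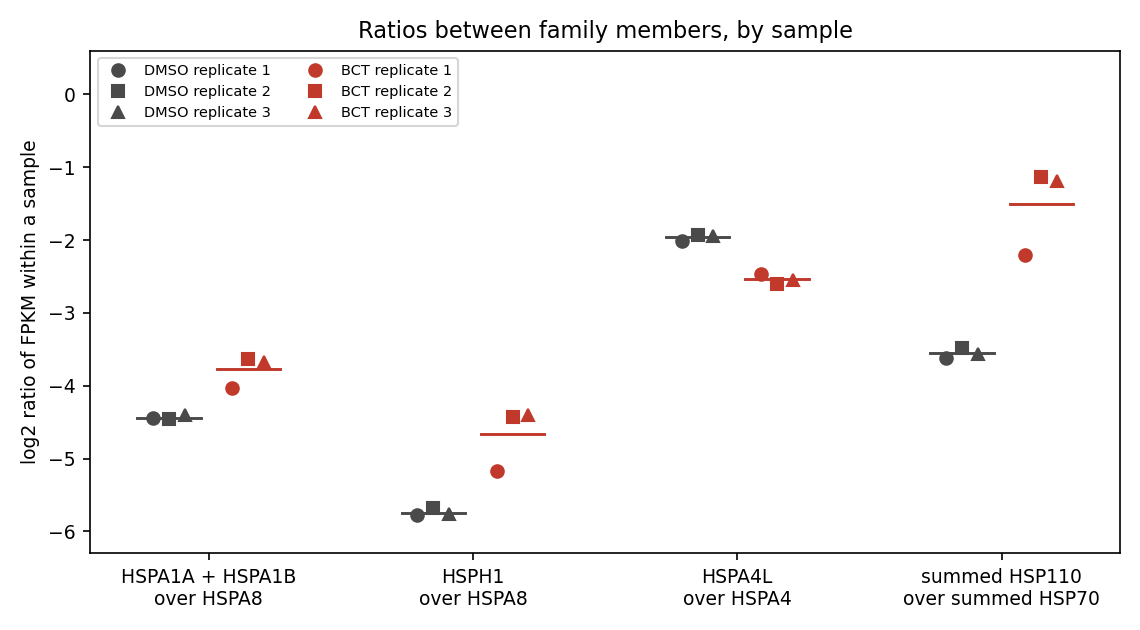
Log2 ratio of FPKM within each sample for 4 pairs of members or sums. Grey points are DMSO samples, red points BCT samples, and bars group means. In each ratio the BCT samples lie on one side of the DMSO samples, and in the summed HSP110 to HSP70 ratio BCT replicate 1 sits about midway on the log2 scale between the DMSO and the other BCT samples.

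Partners and regulators of the family were taken from lists written by hand. Of 42 tested genes in 6 related lists, 14 were called, 9 lower and 5 higher, against the background of 31.6% of all tested genes. Their median log2 fold change was -0.13, beside -0.04 over all tested genes. The direction of this tally depended on the scale of the samples. It was 2 lower and 15 higher at equal FPKM sums, 5 and 9 at equal sums without MIR6087, and 5 and 6 with quantile normalization. The counts below are on the deposited scale, beside 17.8% of all tested genes called lower and 13.9% called higher. Of the 10 J-domain partners, 3 rose and 0 fell, with a median of 0.48. DNAJB2, a J-domain protein known best in neurons, went from 20.7 ± 0.242 to 94.7 ± 12.0 FPKM (SD, n = 3 each), 2.18 higher on the log2 scale (SE 0.085, adjusted p = 4.40e-07, limma). DNAJB4 had a log2 fold change of 1.45 and DNAJC2, the ribosomal partner of HSPA14, one of 1.06, from 29.4 ± 0.715 to 61.5 ± 4.88 FPKM (SD, n = 3 each). DNAJB1, the main heat-inducible HSP40, measured 47.2 ± 0.841 and 43.1 ± 2.91 FPKM (SD, n = 3 each) and was not called.

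Of the 7 nucleotide exchange factors outside HSP110, 1 fell and 0 rose, with a median of -0.06. The one that fell was HSPBP1, an exchange factor that also blocks the ubiquitin ligase CHIP, at 42.0 ± 0.315 and 22.7 ± 2.20 FPKM (SD, n = 3 each; log2 fold change -0.89, adjusted p = 6.58e-06, limma). Of 10 genes for HSP90 and the adaptors that link it to HSP70, FKBP4 fell (-0.99) and CHORDC1 rose (0.88), with a median of -0.59. The HSP90 genes HSP90AA1 (-0.71) and HSP90AB1 (-0.76) were under the fold threshold.

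Of 17 tested HSF1-responsive genes outside the family, 5 fell and 1 rose, with a median of -0.23. These 6 of 17 were near the background of 31.6% of all tested genes called. Several genes of this list are also in the lists above. HSPE1 and HSPD1, the mitochondrial chaperonin pair, had the largest falls in this list, at -1.38 and -1.30. FKBP4, among the 5 that fell, and CHORDC1, which rose, are shared with the HSP90 list and counted in both. In the list of 4 genes for heat shock factors and the binding protein HSBP1, HSF1 went from 27.8 ± 0.995 to 62.7 ± 1.83 FPKM (SD, n = 3 each). Its log2 fold change was 1.17 (SE 0.050, adjusted p = 6.32e-07, limma). HSF4 fell, with a log2 fold change of -1.70 (SE 0.17, adjusted p = 2.89e-05, limma), HSF2 stood at -0.01 and HSBP1, which binds HSF1, at -0.73. These are RNA levels, and HSF1 activity was not measured.

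HSP70 relatives in other compartments fell where they were called. HYOU1 (-1.68) and HSPA5 (-1.25), the large and the main HSP70 of the endoplasmic reticulum, fell, and the mitochondrial HSPA9 stood at -0.79. HSPA6, a strictly stress-inducible HSP70, was at 0.0417 ± 0.0093 FPKM with DMSO and 0.0833 ± 0.0214 FPKM with BCT (SD, n = 3 each). That is far under the filter, so HSPA6 was not tested. HSPA7, HSPA12A and HSPA12B were also under the filter. The small nucleolar RNAs in HSPA8 introns were not analysed here.

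**Figure D4:**
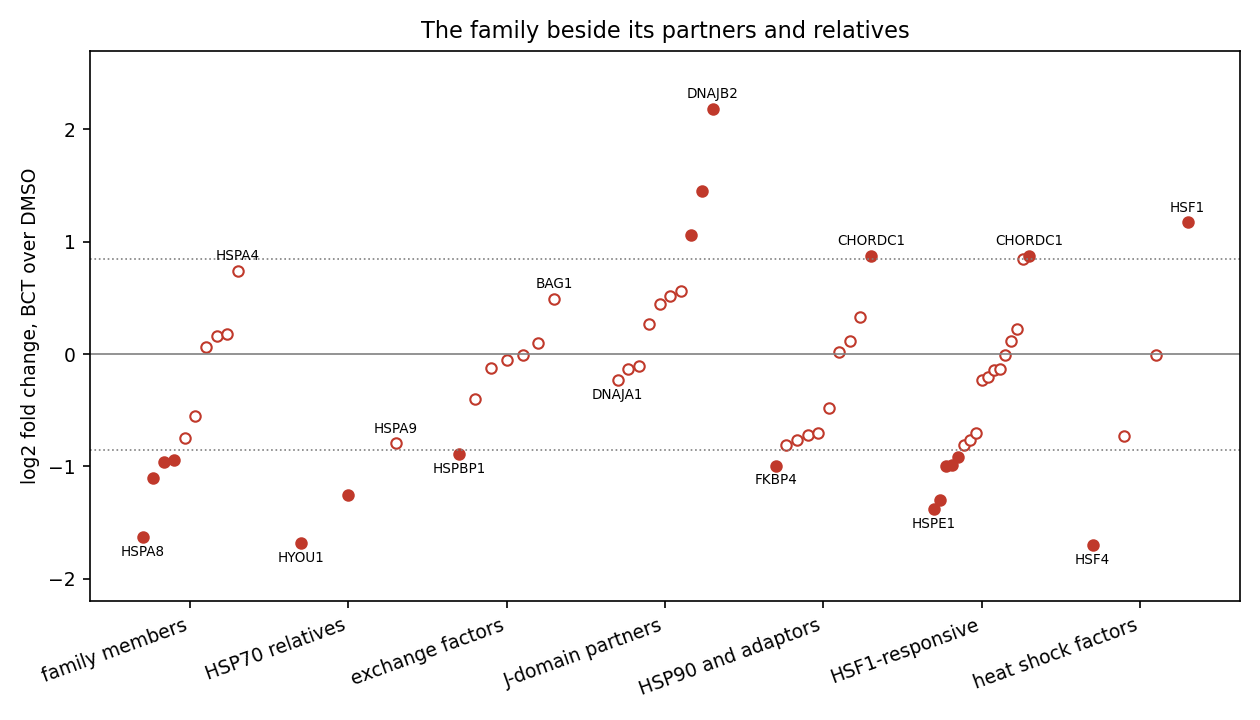
Log2 fold change (BCT over DMSO, of FPKM + 0.1) of the family members and of each related list, 1 point a gene, ordered within a list. Filled points are called, open points are not, dotted lines mark 0.85 on either side, and the lowest and highest gene of each list is named. HSPA8 and HSPA4 end the family's range, and DNAJB2 is the highest point of all.

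In the GENCODE annotation (release 44 lifted to GRCh37), HSPA8 lies at chr11:122928197-122932844 on the minus strand with 9 exons, and HSPA4 at chr5:132387705-132442141 with 19. HSPA1A (chr6:31783320-31785719), HSPA1B (chr6:31795515-31798031) and HSPA2 (chr14:65007459-65009955) each have 1 exon. The deposited files list HSPA1A, HSPA1B and HSPA1L on the alternative haplotype chr6_qbl_hap6 of hg19, with HSPA1A at 3076938 to 3079366. Whether reads from the primary chromosome 6 or from other haplotypes count toward these rows is not given in the sources used here, so their levels, their place in the order and their ratio to HSPA8 may cover part of the reads of these genes. Among the nearest tested genes in the deposited annotation, HSPA4 lay 25366 bases from ZCCHC10, which went from 10.0 to 22.8 FPKM (1.17). HSPA2 lay 100 bases from an interval shared by 4 genes, of which MTHFD1 went from 63.1 to 21.6 FPKM (-1.55) and SYNE2 (-0.53), ZBTB1 (0.18) and ZBTB25 (-0.40) were not called. B3GLCT, 37587 bases from HSPH1, fell (-1.58), and RBM11, 142744 bases from HSPA13, rose (1.08). The others were not called. LSM2 (-0.83) lay 8540 bases from HSPA1A and 2646 from HSPA1L, and C6orf48 (0.62) lay 4665 from HSPA1B. PLK4 (-0.46) lay 47490 bases from HSPA4L, ZNF202 (0.22) 661592 from HSPA8 and CDNF (0.23) 176 from HSPA14.

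The genes most like HSPA8 over the 6 samples were GPT2, TRIM3 and WWC1, with Pearson's r of log2(FPKM + 0.1) of 0.9997, 0.9997 and 0.9996. This is a description over 6 points that share 1 group difference and 1 intermediate BCT sample, and 328 tested genes had an r over 0.99.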

How the data were processed

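RNA was sequenced from 3 DMSO and 3 BCT samples of 22RV1 cells, grouped by their labels. The authors trimmed reads with Trimmomatic, aligned them to hg19 with HISAT2 and assembled them with StringTie, and the deposited files hold FPKM per gene, scaled to length and mapped reads. The submitters' processing notes also name HTSeq and CASAVA, without a role. The gene annotation is not given in the sources used here.

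From the deposited FPKM values, log2(FPKM + 0.1) was fitted for the 12729 genes averaging 1 FPKM or more. The model was limma's (version 3.58.1, R 4.3.3), with eBayes moderation along the mean-variance trend and Benjamini-Hochberg adjustment over all of them. A fold change on this scale understates the change of low genes. The study states an FDR of 0.01 in its methods and of 0.05 in its results, and 0.05 was used here with 0.01 as an alternative. Ratios within a sample were compared by exact permutation tests. The members and the related gene lists were chosen with earlier results of these data known. The text names all members, all genes of lists with at most 4, up to 2 called genes with the largest rise and 2 with the largest fall of each other list, the nearest tested genes, and the 3 genes most like HSPA8. HSP90AA1, HSP90AB1, DNAJB1, DNAJC2, MSANTD7, MIR6087, the defining leukocyte markers and the HSP70 relatives that were not called were named after their values were seen. The HSPA1A and HSPA1B rows were also summed as 1.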

Additional observations from a re-analysis of the deposited data

How the results depend on the processing

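Of 216 member values under the alternatives, 196 kept their direction and their call or lack of one. Passing the FDR alone was not part of this count, and some of the 196 crossed it. A further 13 lost the call, 5 gained it and 2 changed sign. Those 2 were HSPH1, 0.22 at equal FPKM sums, and HSPA4L, -0.18 after the GC content and length correction. That correction was added after seeing the data. HSPA8 was called in all 22 of its settings, at -1.93 to -0.86. Scaling to equal sums gave 6277 called genes, 10.6% of them lower (668 lower, 5609 higher), against 4027 as deposited (2263 lower, 1764 higher), with 1 member lower and 3 higher and 2 related genes lower and 15 higher. Equal sums without MIR6087 left 2 members called, HSPA8 lower and HSPA4 higher, and the GC content and length correction also left 2. A test against the fold threshold itself called 2425 genes, 1 member and 9 related genes. Leaving out 1 sample at a time gave 3822 to 4428 genes, 3 to 4 members and 13 to 16 related genes. The ratios kept their direction in every alternative run for them. These were leaving out 1 sample, adding 0.1 to each FPKM and, for some ratios, changing the genes used. A replicate block leaves their mean difference as it is by construction. Quantile normalization and the GC content and length correction were not applied to the ratios. The cause of the shifts between settings was not tested.

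The replicate numbers did not pair the samples: the deviations of same-numbered samples correlated at 0.116, 0.033 and 0.034, and not every sample correlated best with its own number. A replicate block added to the fit called 4033 genes, 4 members and 14 related genes. Scaling to equal FPKM sums stands for the TPM alternative, since TPM is FPKM scaled to a common sum, and no other was run. With no counts, the precision of single low values such as HSPA1L is unknown.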
